A study of Mus musculus with 16 samples.

Results

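The 9 genes described here serve glucose output and glycerol use in the liver: Pck1, G6pc, Fbp1, Slc37a4, Ppargc1a, Crtc2, Aqp9, Gpd1 and Gpd2. They were taken by gene symbol as a pathway, with earlier results of these data known, and they are 9 of the 25803 genes in the deposited count tables. All 9 passed the filter on low counts, out of 14488 genes that did. Male mice ate a high-fat diet over 12 weeks, and bulk RNA of their livers was sequenced. Controls were set against mice with a liver knockout of Cpt1a (LKO), either fasted 16 h or refed 6 h following that fast. This makes fasted control, fasted LKO, refed control and refed LKO, each with 4 libraries, and all share the sex and the diet. Cpt1a encodes the outer mitochondrial membrane enzyme that lets long-chain fatty acids into oxidation, and the study's title links its loss in the liver to plasma cholesterol. The labels do not say how the knockout was made, nor name the littermate or transgene status of the controls, and no fed, unfasted group or other diet was analysed here. Numbered titles are the only statement that libraries of a group are separate, so p-values measure the spread between these libraries.

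In gluconeogenesis the liver builds glucose from lactate, amino acids and glycerol and releases it to the blood during a fast. Phosphoenolpyruvate carboxykinase (Pck1), fructose bisphosphatase (Fbp1) and the glucose-6-phosphatase system (the catalytic subunit G6pc and the transporter Slc37a4) carry out steps that glycolysis cannot run backwards, and glucagon acting through cAMP, CREB, its coactivator Crtc2 and Ppargc1a raises transcription of several of them while insulin lowers it. Glycerol from fat enters hepatocytes through the channel Aqp9, is phosphorylated by glycerol kinase, and joins the pathway after oxidation by the cytosolic (Gpd1) or mitochondrial (Gpd2) glycerol-3-phosphate dehydrogenase.

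Promoters of 3 of these genes are shown because this pathway is known to be switched through cAMP and insulin elements. A full cAMP element was matched only in Pck1 and the core of the insulin element only in G6pc. Ppargc1a matched only TGACG, the short core of the cAMP element. The sequences are from RefSeq on GRCm38.p6, run 5′ to 3′ on the gene's strand and cover the 250 bases that end just before the start of the transcript. Capitals mark matches to the motifs that were searched.

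Pck1, chr2:173152823-173153072, + strand: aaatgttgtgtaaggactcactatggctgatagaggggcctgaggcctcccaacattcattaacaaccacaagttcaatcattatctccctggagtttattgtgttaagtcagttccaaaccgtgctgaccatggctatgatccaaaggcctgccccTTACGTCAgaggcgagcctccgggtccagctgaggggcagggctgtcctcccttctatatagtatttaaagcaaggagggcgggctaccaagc

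G6pc, chr11:101367466-101367715, + strand: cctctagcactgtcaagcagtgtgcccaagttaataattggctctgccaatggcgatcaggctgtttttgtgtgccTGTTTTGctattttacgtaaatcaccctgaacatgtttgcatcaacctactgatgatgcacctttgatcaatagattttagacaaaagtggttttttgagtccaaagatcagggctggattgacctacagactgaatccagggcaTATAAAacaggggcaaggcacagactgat

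Ppargc1a, chr5:51567726-51567975, - strand: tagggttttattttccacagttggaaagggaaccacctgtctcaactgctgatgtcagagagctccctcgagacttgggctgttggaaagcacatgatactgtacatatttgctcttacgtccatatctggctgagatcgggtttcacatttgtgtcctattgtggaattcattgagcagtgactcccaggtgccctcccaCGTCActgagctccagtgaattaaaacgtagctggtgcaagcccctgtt

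The Pck1 window holds TTACGTCA, a form of the cAMP response element, 93 to 86 bases before the start. The short core TGACG overlaps it on the other strand at 90 to 86 bases. TTACGTCA was found in 0.447% of 32851 promoter windows of this length, searched on both strands, and TGACG in 17.8%. The G6pc window holds a TATA box, TATAAA, 29 to 24 bases before the start, and CAAAACA, the core of the insulin response element, on the other strand at 174 to 168 bases. TATAAA was found in 12.4% of all windows and CAAAACA in 5.56%. The Ppargc1a window holds TGACG on the other strand 49 to 45 bases before the start. Of the 9 genes, 7 had a promoter entry, and Gpd1 and Crtc2 had none. The single Fbp1 window held no match to any motif searched, which says only that these letters are not in those 250 bases. The other motifs searched were TGACGTCA (1.55% of windows), TTGCNNAA (9.56%), the DR1 element of nuclear receptors (0.0335%) and TGTTTAC (3.17%). Of these only TTGCNNAA matched in the members' windows. It lay 86 to 79 bases before a Gpd2 start and, on the other strand, 229 to 222 bases before an Aqp9 start. Slc37a4, which has several annotated starts, held TGACG before 2 of its starts and TATAAA 32 to 27 bases before another. A match is a description of letters, and binding was not measured.

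Libraries held 14721601 to 24618230 counts, and values below are CPM, counts divided by the TMM-scaled total of tested genes in M (mega) counts. Cpt1a itself was 378 to 556 CPM in fasted control against 86.1 to 126 in fasted LKO, and 319 to 620 when refed control was compared with 39.9 to 75.2 in refed LKO, without overlap in either state. Hepatocyte markers, 7 genes tested, summed to 74878 to 82963 CPM in fasted control and 61648 to 70794 in fasted LKO, without overlap, and to 72019 to 91104 and 63475 to 77933 in the refed groups. Of these 7, 5 were called lower in fasted LKO, against 12.2% of all tested genes called, and 1 in refed LKO, against 3.63%. Their median log2 fold changes were -0.51 and -0.21, and 0 were called higher. Apoa1 of this list went the other way, at 9485 to 12642 CPM in fasted control and 10563 to 16526 in fasted LKO. In refed livers Apoa1 ran from 7750 to 9944 CPM in control and from 11314 to 16208 in LKO, without overlap. The part of these markers in the results was not tested. The adipocyte genes Adipoq, Retn and Lep had a median of 0 over the 16 libraries. One fasted LKO library, S44, stood apart in Krt19, a bile duct keratin, with 29.0 CPM against 0.85 to 2.22 in the other libraries. Of 5 tested lymphocyte markers, 1 was called in each genotype comparison, Jchain, against 12.2% of all genes fasted and 3.63% refed. Jchain was at 7.89 to 27.4 CPM in fasted LKO against 0.93 to 3.15 in fasted control. After refeeding it was at 12.3 to 31.6 in LKO against 0.80 to 2.23 in control. Its part in the results was not tested. Libraries are named by their count columns, since no replicate number could be attached: fasted ones are S40 to S43 (control) and S44 to S47 (LKO), refed ones S48 to S51 (control) and S52 to S55 (LKO).

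Expressed per kilobase of gene length, the 9 genes spanned 3 orders of magnitude. Mean CPM per kilobase over the 16 libraries was 768 for Pck1, 605 for Fbp1, 254 for Gpd1, 130 for Aqp9, 110 for G6pc, 63.4 for Slc37a4, 10.8 for Crtc2, 4.72 for Gpd2 and 0.61 for Ppargc1a. The channel and every enzyme except Gpd2 thus stood above the regulators Crtc2 and Ppargc1a on this scale. Ppargc1a rested on only 30 to 105 raw counts a library, against 24247 to 92823 for Pck1. In the 4 group comparisons the SE of its log2 fold change was nonetheless 0.27 to 0.28, close to the 0.28 of Pck1 and below the 0.34 to 0.35 of G6pc. G6pc and Pck1 also varied widely between replicates: within fasted control the highest library had 3 times the G6pc of the lowest and 2.3 times the Pck1, against 1.2 times for Gpd1.

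**Figure D1:**
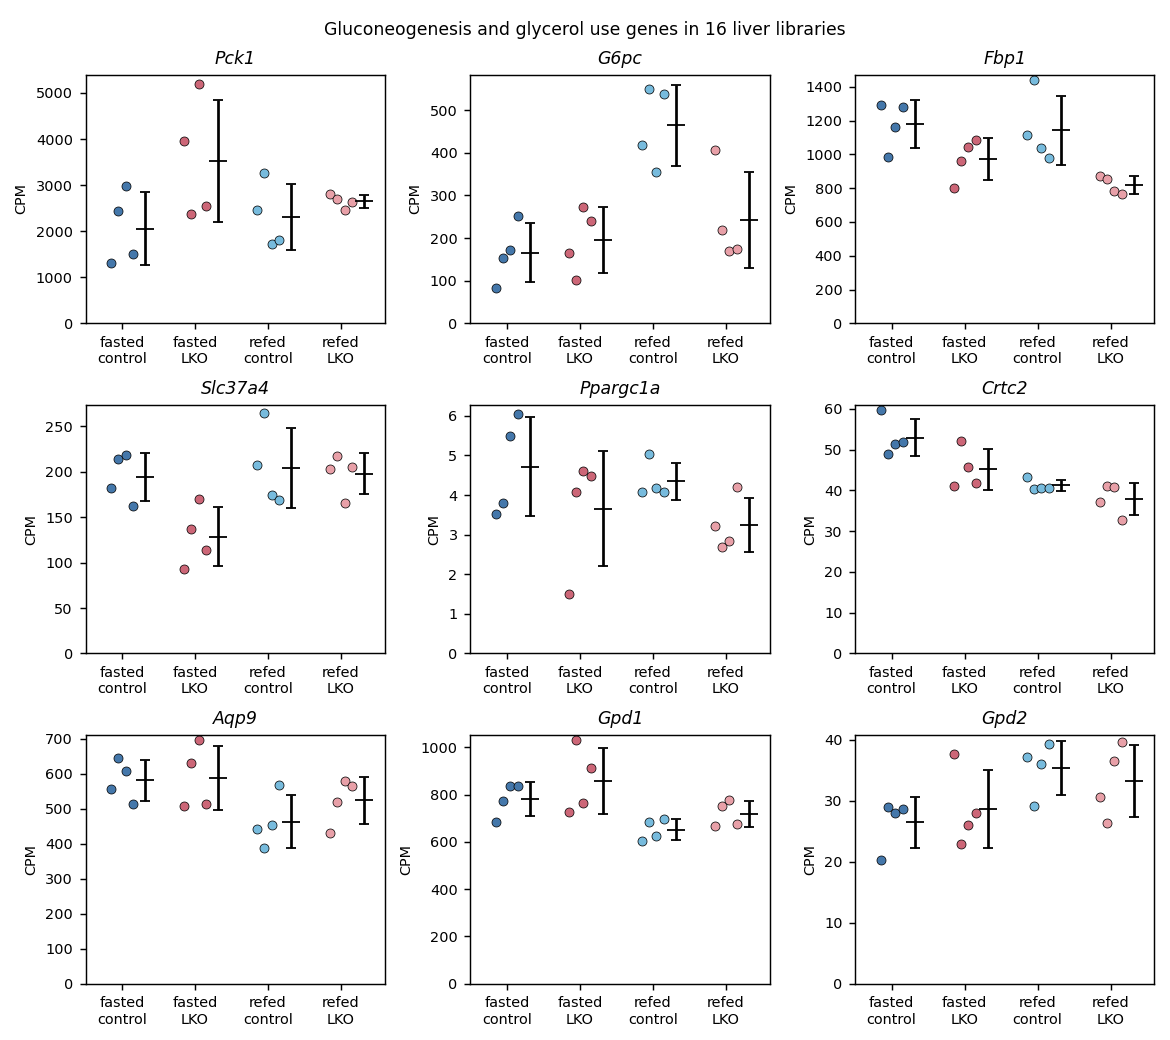
CPM (vertical axes, linear from 0) of the 9 genes in each of the 16 libraries, by group; bars give the mean and SD of 4 libraries. G6pc in refed control sits between 354 and 549 CPM, above all 4 fasted control libraries, and Fbp1 in refed LKO sits between 766 and 875 CPM, below all 4 refed control libraries.

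Pck1 codes for the cytosolic enzyme that turns oxaloacetate into phosphoenolpyruvate, the entry step for lactate and amino acids. Its fasted control libraries held 1298, 2443, 2985 and 1498 CPM, and its fasted LKO libraries 3962, 2370, 5203 and 2544 CPM. The 2 groups overlapped, since both S41 and S42 of the controls exceeded the lowest LKO library. The fitted log2 fold change of LKO against control was 0.78 (SE 0.28), a 1.71-fold higher value that missed the threshold (edgeR adjusted p = 0.0836). Without S42 the adjusted p was 0.0464, without S45 it was 0.0441, and DESeq2 gave 0.0361 on all libraries. Pck1 was thus called in 2 of 8 fits without a library, where adjusted p reached 0.271. Among 7 other settings it was called in 1, with adjusted p up to 0.154. The authors' deposited table gives an adjusted p of 0.223 for the same comparison. In the refed state the control libraries held 2458, 3269, 1717 and 1799 CPM and the LKO libraries 2803, 2688, 2457 and 2631 CPM, within the control range. Refeeding did not move Pck1 past the threshold in either genotype (control 0.17, SE 0.28, edgeR adjusted p = 0.729; LKO -0.41, SE 0.28, adjusted p = 0.345, both log2). Mean levels ran from fasted LKO at 3520 ± 1329 CPM through refed LKO at 2645 ± 144 and refed control at 2311 ± 720 to fasted control at 2056 ± 795 (SD, n = 4). Neighbours in that order overlapped, as they did for each of the other 8 genes.

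Fbp1, which removes a phosphate from fructose-1,6-bisphosphate, was lower in refed LKO livers than in refed controls. Refed control libraries held 1115, 1440, 1041 and 981 CPM, and refed LKO libraries 875, 853, 783 and 766 CPM. Every refed LKO library lay below every refed control library, a separation that 11.7% of all tested genes also showed in that comparison. The log2 fold change was -0.48 (SE 0.13), a 1.40-fold lower level, with an edgeR adjusted p of 0.0481. That call was narrow: it was kept only without S51 among the 8 fits that left out a library (S48 to S50 and S52 to S55 each ended it, adjusted p up to 0.129). It ended at 0.0507 with RLE scaling, 0.0513 with upper quartile scaling, 0.0577 with no filter and 0.0721 with only the 2 groups. The call was kept with DESeq2, with limma-voom and with the filter at a mean of 5 CPM. The authors' deposited table gives an adjusted p of 0.00931 for the same comparison. Fasted libraries held 1291, 987, 1164 and 1284 CPM in control and 803, 963, 1042 and 1086 CPM in LKO, with overlap (log2 fold change -0.28, SE 0.13, edgeR adjusted p = 0.175). Fbp1 did not pass the test for refeeding in either genotype (-0.05 in control and -0.25 in LKO, SE 0.13 each, edgeR adjusted p 0.845 and 0.200).

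Hepatocytes near the portal vein are known for higher levels of gluconeogenic enzymes, so markers of that zone stand here beside Fbp1. All 10 periportal markers were tested. In fasted livers their summed level was 7026 to 9760 CPM for control and 5090 to 6996 for LKO, without overlap. In refed livers it was 6411 to 10202 CPM for control and 4636 to 6876 for LKO, with overlap. In each state 1 of the 10 was called higher and 1 lower, against 12.2% of all genes called fasted and 3.63% refed. Their median log2 fold change was -0.69 fasted and -0.52 refed. S49, which held the highest Fbp1 value, also held the highest periportal sum. The 10 pericentral markers had medians of -0.74 fasted and -0.42 refed. Of them 4 and 3 were called lower and 1 and 0 higher, against the same shares of all genes. The part of zonal markers in the Fbp1 result was not tested. In bulk tissue, fewer cells of a type and less RNA per cell cannot be told apart.

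G6pc, the catalytic subunit that frees glucose in the endoplasmic reticulum, had the largest fitted change of the 9 genes among the 4 group comparisons: it rose with refeeding in control livers. Fasted control libraries held 83.9, 154, 172 and 252 CPM, and refed control libraries 417, 549, 354 and 539 CPM. All refed control libraries were above all fasted ones. The log2 fold change was 1.49 (SE 0.35), 2.81-fold, with an edgeR adjusted p of 0.0102, and the call was kept in 8 of 8 fits without a library and under 7 of 7 other settings. The authors' deposited table gives 1.49 with an adjusted p of 0.000252 for the same comparison.

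In LKO livers the G6pc values were 164, 101, 274 and 239 CPM fasted and 407, 219, 170 and 174 CPM refed, and those groups overlapped. Refeeding gave a log2 fold change of 0.32 there (SE 0.34, edgeR adjusted p = 0.572). Refed LKO was 1.92-fold below refed control in the fit (log2 fold change -0.94, SE 0.35), short of the threshold with an edgeR adjusted p of 0.149. A single refed LKO library, S52 at 407 CPM, reached into the control range, and without S52 the difference was -1.31 with an adjusted p of 0.0487. The difference between the refeeding responses of the genotypes, the interaction, was -1.17 on the log2 scale (SE 0.49, edgeR adjusted p = 0.235), so a rise called in control and not in LKO was not shown to differ between them.

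Slc37a4, the transporter that brings glucose-6-phosphate to G6pc, was lower in fasted LKO than in fasted control livers. Fasted control libraries held 182, 214, 218 and 162 CPM, and fasted LKO libraries 93.2, 137, 170 and 114 CPM. A single pair crossed, S46 of LKO at 170 and S43 of control at 162. The log2 fold change was -0.59 (SE 0.17), 1.51-fold lower, with an edgeR adjusted p of 0.0346. In the same comparison 5 of 7 hepatocyte markers were called lower, against 12.2% of all genes called, while Apoa1 went the other way, as given above. Refed libraries held 207, 265, 174 and 169 CPM in control and 202, 217, 165 and 205 CPM in LKO, and these overlapped (-0.05, SE 0.17, edgeR adjusted p = 0.927). Slc37a4 rose with refeeding in LKO livers, by a log2 fold change of 0.62 (SE 0.17, edgeR adjusted p = 0.0213), against 0.07 in control livers (SE 0.17, adjusted p = 0.824). Its interaction was 0.55 (SE 0.25) with an edgeR adjusted p of 0.273.

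Both Slc37a4 calls depended on single libraries. The fasted genotype call was lost without any of S40, S41, S42, S44 or S47 (adjusted p up to 0.110) and with only the 2 groups fitted (0.0633). The LKO refeeding call was lost without S44, S47, S52, S53 or S55, with adjusted p up to 0.0663. Neither estimate changed sign: they ran from -0.76 to -0.47 and from 0.49 to 0.78 over those fits. Library S44, which stood apart in Krt19, held the lowest Slc37a4 value, and without it the fasted difference was -0.47.

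Crtc2, the coactivator that enters the nucleus and joins CREB when glucagon signals, fell with refeeding in control livers. Fasted control libraries held 59.7, 49, 51.5 and 51.8 CPM and refed control libraries 43.3, 40.5, 40.5 and 40.7 CPM, with no overlap. The log2 fold change was -0.36 (SE 0.09), 1.29-fold, with an edgeR adjusted p of 0.0157, and it was lost only without S40 (0.0623). In LKO the same step went from 41.1, 52.1, 45.7 and 41.8 CPM to 37.1, 41.1, 40.8 and 32.7 CPM. These groups touched at 41.1 CPM, and the change of -0.25 (SE 0.09) had an edgeR adjusted p of 0.0713, or 0.0480 where genes under a mean of 5 CPM were dropped. Genotype differences in Crtc2 did not pass (fasted -0.23, refed -0.12, SE 0.09 each, edgeR adjusted p 0.118 and 0.536), but the fasted one did without S45 (0.0367).

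Ppargc1a, the coactivator PGC-1alpha, stayed between 1.5 and 6.05 CPM in all 16 libraries. Fasted control libraries held 3.53, 3.79, 5.50 and 6.05 CPM and fasted LKO libraries 1.5, 4.07, 4.60 and 4.48 CPM. Refed control libraries held 4.09, 5.05, 4.18 and 4.07 CPM and refed LKO libraries 3.22, 2.68, 2.84 and 4.20 CPM. All 4 group ranges touched their neighbours. Its 5 fitted log2 differences ran from -0.42 to -0.05, their SE from 0.27 to 0.39, and their edgeR adjusted p was 0.434 or more, so no difference was detected.

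None of the 3 glycerol genes passed the test between genotypes. Aqp9, the main glycerol channel of hepatocytes, held 558, 646, 607 and 514 CPM in fasted control and 508, 630, 696 and 515 CPM in fasted LKO, nearly the same range, with a log2 fold change of 0.01 (SE 0.13, edgeR adjusted p = 0.962). After refeeding it held 443, 387, 454 and 567 CPM in control and 431, 520, 580 and 564 CPM in LKO (0.18, SE 0.13, edgeR adjusted p = 0.520). The refeeding change in control was -0.33 (SE 0.13, edgeR adjusted p = 0.110), and without S51, the highest refed control library, it was -0.44 with an adjusted p of 0.0354.

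Gpd1, the cytosolic dehydrogenase that links glycerol-3-phosphate to the triose pool, was 782 ± 73 CPM in fasted control and 857 ± 141 in fasted LKO, and after refeeding 652 ± 44 for control and 718 ± 54.9 for LKO (SD, n = 4 each). Refeeding gave log2 fold changes of -0.26 in both genotypes (SE 0.11 each, edgeR adjusted p 0.122 in control and 0.127 in LKO). Gpd2, the mitochondrial enzyme that passes electrons from glycerol-3-phosphate to the respiratory chain, was 26.4 ± 4.17, 28.6 ± 6.38, 35.4 ± 4.42 and 33.2 ± 5.94 CPM in the same order. All 4 refed control libraries (29.1 to 39.4 CPM) lay above all 4 fasted ones (20.2 to 28.9), yet the change of 0.42 (SE 0.16) did not pass here (edgeR adjusted p = 0.0912). In the authors' deposited table that Gpd2 change has an adjusted p of 0.0334 and the Gpd1 change in control 0.0460, so these 2 genes are called there and not here.

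**Figure D2:**
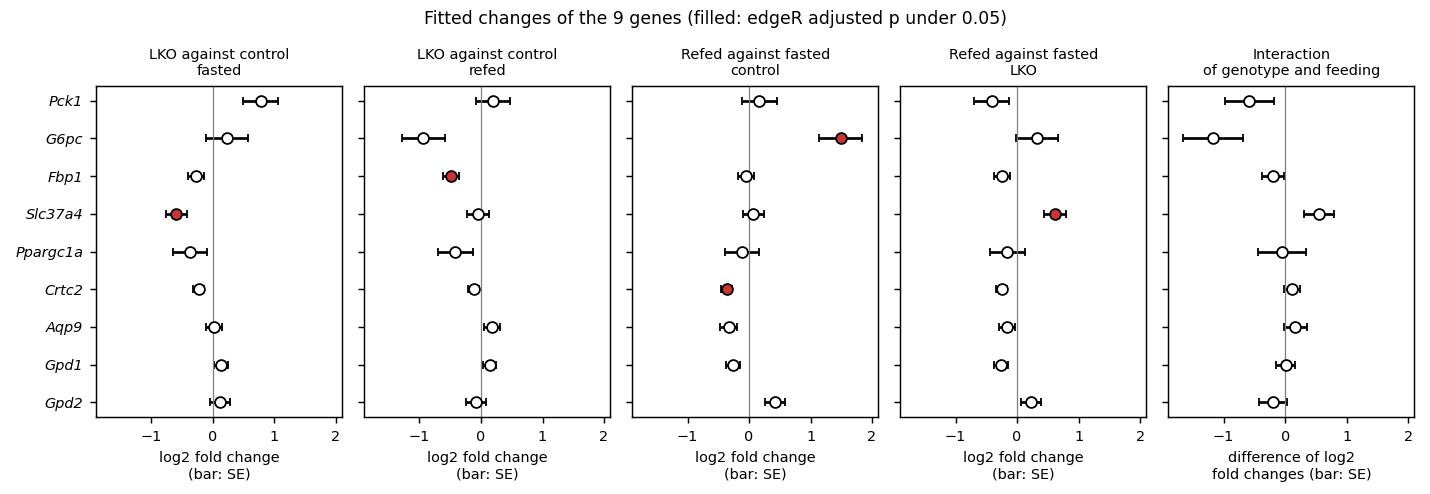
Fitted log2 fold changes (horizontal axes) of the 9 genes in the 5 comparisons, with bars of 1 SE; red points passed an edgeR adjusted p of 0.05. The 5 red points are Slc37a4 in the fasted genotype comparison, Fbp1 in the refed one, G6pc and Crtc2 for refeeding in control, and Slc37a4 for refeeding in LKO.

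Counted together, few of the 9 genes passed in any comparison. Between genotypes, 1 of 9 was called in the fasted state, against 12.2% of all tested genes, and 1 of 9 in the refed state, against 3.63%. For refeeding, 2 of 9 were called in control, against 15.4% of all genes, and 1 of 9 in LKO, against 18.1%. No member was called in the interaction by edgeR, DESeq2 or limma-voom, where 0.538% of all genes were called by edgeR; G6pc and Slc37a4 had an unadjusted p under 0.05. Groups did not overlap for 0 members in the fasted genotype comparison, where 16.9% of all genes were so separated, for 1 (Fbp1) in the refed one, for 3 (G6pc, Crtc2 and Gpd2) under refeeding in control, against 20.4%, and for 0 under refeeding in LKO, against 20.6%. Median log2 fold changes of the 9 genes were 0.01, -0.09, -0.05 and -0.16 in these 4 comparisons, and over all genes 0.02, -0.01, 0.01 and -0.02. As 1 gene is 11.1% of the 9, these counts are read as no result about the 9 genes as a set. The comparisons share groups and are therefore not independent of each other.

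Other genes of the same route, among them reversible steps shared with glycolysis, paralogs of the members, aminotransferases, malate dehydrogenases and mitochondrial carriers, were read from a list of 24 genes, of which 23 were tested. In fasted LKO livers 3 were called higher and 1 lower, 17.4% of the list against 12.2% of all genes, and in refed LKO livers 3 higher and 0 lower, 13.0% against 3.63%. Fbp2, the paralog of Fbp1 better known from muscle, held 0.75, 0.93, 0.76 and 0.87 CPM in fasted control and 6.24, 2.21, 4.93 and 2.55 CPM in fasted LKO. That is a log2 fold change of 2.27 (SE 0.35, edgeR adjusted p = 0.000805), opposite in sign to that of Fbp1 beside it on chromosome 13. Per kilobase of gene length, the mean level in fasted LKO was 2.71 ± 1.32 CPM for Fbp2 and 572 ± 73.2 CPM for Fbp1 (SD, n = 4). Ldha, a lactate dehydrogenase subunit, rose from 1246 to 1327 CPM in fasted control to 1942 to 2561 in fasted LKO, and from 1113 to 1258 CPM in refed control to 1889 to 2436 in refed LKO, without overlap in either state (0.79 and 0.82, SE 0.10 each, edgeR adjusted p 0.000305 and 0.000497). Of the alanine aminotransferases, which make pyruvate from alanine, the mitochondrial Gpt2 was higher (0.62, SE 0.11, edgeR adjusted p = 0.00238) and the cytosolic Gpt lower (-0.67, SE 0.17, adjusted p = 0.0189, lost without S46 at 0.0504) in fasted LKO. In refed LKO the call beside Fbp2 and Ldha was Mdh2, a mitochondrial malate dehydrogenase (0.33, SE 0.08, edgeR adjusted p = 0.0348, kept only without S49 or S52).

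Refeeding lowered 3 of these 23 genes in control, namely Pcx, Pck2 and G6pc3, and raised Pgk1 (0.30, SE 0.09, edgeR adjusted p = 0.0273, lost without S40, S41, S48 or S49). These 4 calls were 17.4% of the list, against 15.4% of all genes. Pyruvate carboxylase, Pcx, which feeds oxaloacetate to Pck1, went from 831 to 918 CPM down to 643 to 703 CPM (-0.41, SE 0.10, edgeR adjusted p = 0.0100). G6pc3, a broadly expressed relative of G6pc, changed by -0.42 (SE 0.11, edgeR adjusted p = 0.0184, lost without S40, S43, S48 or S49), against the 1.49 of G6pc. Fbp2 was the single gene of the list called for refeeding in LKO (-1.0, SE 0.32, edgeR adjusted p = 0.0378, lost without S44, S46, S52, S53 or S55). That is 4.35% of the list, against 18.1% of all genes. The list's median log2 fold changes were -0.12, 0.11, -0.10 and 0.09 in the 4 group comparisons. Gapdh ranged from 11.6 to 167 CPM between libraries, and how reads from its near-identical copies in the genome were counted is not given in the sources used here, so its values are uncertain.

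Around Aqp9, Gpd1 and Gpd2, the list of other glycerol genes had 8 tested members, of which 2 were called higher and 1 lower in fasted LKO, where 12.2% of all genes were called. Gk, glycerol kinase, which works between the channel and the dehydrogenases, held 72.2, 104, 101 and 82.6 CPM in fasted control and 278, 194, 280 and 179 CPM in fasted LKO. No library overlapped, and the 2.59-fold difference (log2 1.37, SE 0.16, edgeR adjusted p = 0.000238) was kept in 8 of 8 fits without a library. In refed livers Gk was 88.2, 93.4, 128 and 121 CPM in control and 141, 148, 161 and 157 CPM in LKO, separated but short of the threshold (0.49, SE 0.16, edgeR adjusted p = 0.103). Mgll, the lipase that frees glycerol from monoacylglycerol, was higher in fasted LKO (0.72, SE 0.15, edgeR adjusted p = 0.00583). Adh1, an alcohol dehydrogenase, was lower there (-1.23, SE 0.16, edgeR adjusted p = 0.000309). No gene of this list was called between refed groups by edgeR, where 3.63% of all genes were called, or by limma-voom. DESeq2 called 2 of the 8, and over all genes it called 924, against 526 by edgeR. Unadjusted edgeR p was under 0.05 for 4 of 8.

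With refeeding, Tkfc, which phosphorylates glyceraldehyde and dihydroxyacetone, rose by a log2 fold change of 1.04 in each genotype (SE 0.19, edgeR adjusted p 0.00268 in control and 0.00149 in LKO). It was the 1 called glycerol gene of 8 in control, against 15.4% of all genes. In LKO 5 of 8 were called, against 18.1% of all genes: Tkfc, Adh1 (1.09, SE 0.16) and Pgp, a glycerol-3-phosphate phosphatase (0.55, SE 0.10), were higher, and Gk (-0.62, SE 0.16) and Aqp7 (-2.09, SE 0.68) lower, with edgeR adjusted p of 0.0413 or less. Aqp7, the glycerol channel of fat cells, stayed under 1.85 CPM in every library, and 7 of the 8 fits without a library lost its call (S44, S46, S47 and S52 to S55). The adipocyte list summed to 46.6 to 132 CPM in fasted control and 153 to 355 in fasted LKO. In refed control and refed LKO it summed to 10.8 to 116 and 66.4 to 110 CPM. The list's defining genes Adipoq, Retn and Lep were at a median of 0 over the 16 libraries. Its 2 tested genes moved in opposite directions in fasted LKO: Cidec, a lipid droplet protein, ran from 36.8 to 81.7 CPM in fasted control and from 151 to 354 in fasted LKO, and Cfd from 9.75 to 58.1 and from 0.34 to 9.51. Its part in the Aqp7 values was not tested. Median log2 fold changes of the glycerol list were -0.12, 0.20, 0.05 and 0.04 in the 4 group comparisons.

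**Figure D3:**
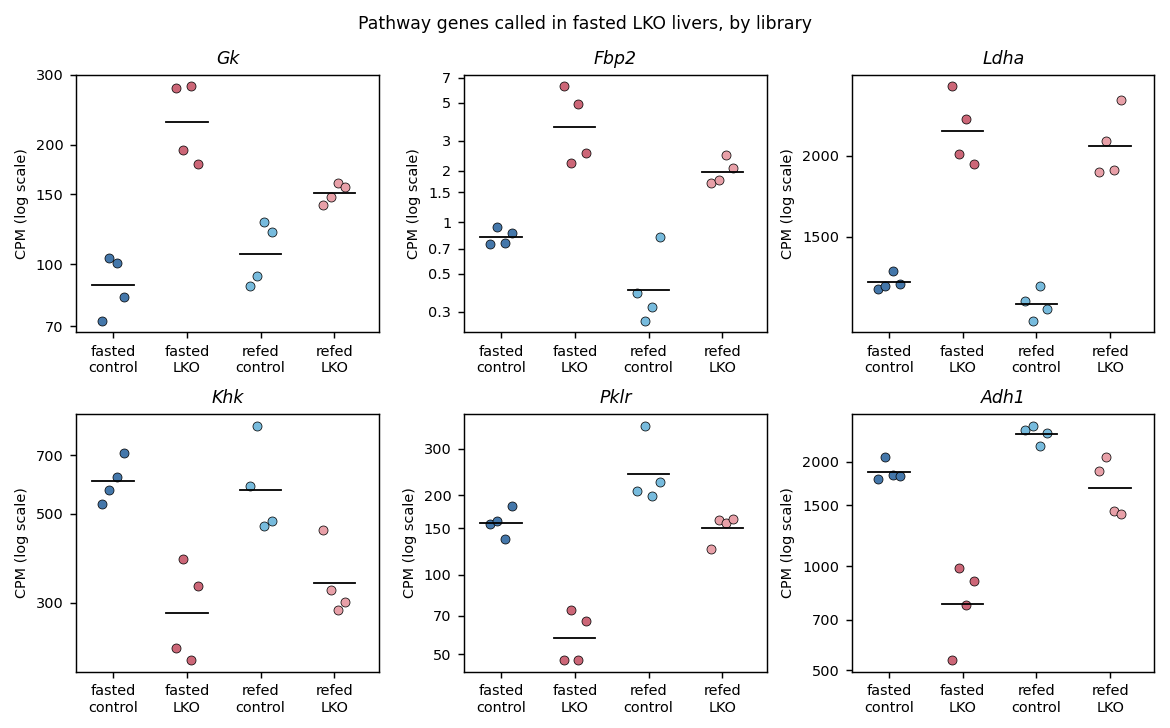
CPM (vertical axes, log scale) of 6 other pathway genes in the 16 libraries, with a line at the geometric mean of each group. Gk, Fbp2 and Ldha in fasted LKO lie above, and Khk, Pklr and Adh1 below, every fasted control library.

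Upstream of the 9 genes, the glucagon, cAMP and CREB list had 20 tested members besides Crtc2. In fasted LKO 2 were called higher and 1 lower, against 12.2% of all genes called. Sik1, the salt-inducible kinase that CREB induces and that holds Crtc2 in the cytoplasm, was 8.39 to 20.7 CPM in fasted control and 18.6 to 31.1 in fasted LKO, overlapping in 1 library, S43 (1.04, SE 0.25, edgeR adjusted p = 0.0137). The smaller calls were Prkar1a (0.25, SE 0.06, lost without S41, S42 or S46) and Crtc1 (-0.34, SE 0.11, lost without S40 to S44 or S46). In refed LKO 2 were lower and 0 higher, against 3.63% of all genes: Crem, a CREB-family factor (-0.70, SE 0.15, edgeR adjusted p = 0.0165, lost without S48 or S55) and the coactivator Crebbp (-0.34, SE 0.08, adjusted p = 0.0283, kept only without S51). The glucagon receptor Gcgr did not pass in any comparison, with 370 to 516 CPM over all libraries.

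Refeeding in control called 5 of these 20 genes higher and 1 lower, against 15.4% of all genes, the same comparison in which G6pc rose and Crtc2 fell. Sik1 (1.17, SE 0.25), Crem (0.55, SE 0.15), Crebbp (0.47, SE 0.08), Ep300 (0.47, SE 0.10) and Prkar2a (0.41, SE 0.09) were higher and Crtc1 (-0.33, SE 0.11) lower, with edgeR adjusted p of 0.0457 or less; Crem was lost without S41 or S49 and Crtc1 was kept only without S41 or S51. In LKO 1 was higher, Prkar2a (0.46, SE 0.09), and 4 lower, against 18.1% of all genes, namely Crtc3 (-0.52, SE 0.11), Sik3 (-0.28, SE 0.08), Pde4d (-1.25, SE 0.30) and Creb3l3 (-0.43, SE 0.12). Sik3 was lost without S46, S47, S52, S54 or S55, and Creb3l3 without S46 or S52. Median log2 fold changes of this list were 0.14, -0.13, 0.09 and -0.17 in the 4 group comparisons.

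Transcription factors of the gluconeogenic programme, 16 genes all tested, gave 1 call between fasted genotypes by edgeR and by DESeq2 and 0 by limma-voom. The edgeR call was 6.25% of the list, against 12.2% of all genes, and 9 had an unadjusted p under 0.05 there. Between refed genotypes there were 0 calls by edgeR, DESeq2 or limma-voom, and 4 had an unadjusted p under 0.05. Of all genes, edgeR called 3.63% there. Cebpb, a factor known to act on the Pck1 promoter, was 340, 469, 483 and 222 CPM in fasted control and 189, 222, 291 and 196 CPM in fasted LKO (-0.76, SE 0.24, edgeR adjusted p = 0.0481). Among the fits without a library that call was kept only without S43 or S46, and limma-voom gave 0.0607. Refeeding in control lowered Cebpb (-0.86, SE 0.24) and Cebpa (-0.36, SE 0.10) and raised the glucocorticoid receptor Nr3c1 (0.32, SE 0.08), at edgeR adjusted p of 0.0228, 0.0272 and 0.0168. Together they were 18.75% of the list, against 15.4% of all genes. Each of these 3 was lost in some fits without a library: Cebpb without S41, S42, S48 or S50, Cebpa without S40, S43, S48, S49 or S50, and Nr3c1 without S40 or S50. In LKO the 1 call was Ppargc1b, the relative of Ppargc1a (-0.96, SE 0.28, edgeR adjusted p = 0.0241, lost without S44 or S55). That is 6.25% of the list, against 18.1% of all genes. Foxo1 and Hnf4a did not pass in any comparison. The list's medians were -0.29, -0.19, -0.01 and -0.05.

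A list of 7 glycolytic enzymes and switches had 3 genes called lower and 0 higher in fasted LKO, and 3 lower and 0 higher in refed LKO, where 12.2% and 3.63% of all genes were called. In both states these were Pklr, Khk and Gckr, of which Pklr is an enzyme of glycolysis itself, Khk phosphorylates fructose and Gckr is a regulatory protein. Of 7 hepatocyte markers, the 5 called lower in fasted LKO moved in the same direction, while Apoa1 went the other way. Pklr, liver pyruvate kinase, was 155, 159, 137 and 181 CPM in fasted control and 47.7, 73.4, 47.5 and 66.9 CPM in fasted LKO. In refed livers it was 208, 367, 198 and 223 CPM in control and 125, 161, 158 and 163 CPM in LKO, so the genotypes overlapped in neither state. Pklr had log2 fold changes of -1.43 in fasted LKO (SE 0.19, edgeR adjusted p = 0.000344) and -0.72 in refed LKO (SE 0.19, adjusted p = 0.0440).

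Gckr and Khk were also lower in both states (Gckr -0.71 and -0.88, SE 0.16 and 0.17; Khk -1.07 and -0.79, SE 0.21 each; edgeR adjusted p of 0.0488 or less). The refed calls of Pklr and Khk were lost without S48, S49, S53, S54 or S55, that of Pklr also without S52 and that of Khk also without S50. For refeeding, 1 of 7 was called higher in control (Pklr, 0.65, SE 0.19, lost without S40, S41, S42 or S49) and 2 in LKO, Pklr and Pfkfb3 (1.45, SE 0.42, lost without S44, S47 or S55). These were 14.3% and 28.6% of the list, against 15.4% and 18.1% of all genes. Medians of this list were -0.71, -0.34, 0.37 and 0.59 in the 4 group comparisons.

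In the interaction, 0 genes of the 5 lists were called by edgeR, against 0.538% of all genes. Over all genes DESeq2 called 467 here, against 78 of 14488 by edgeR. It called 3 of 8 glycerol genes and 3 of 20 glucagon genes, and 0 in the gluconeogenic, factor and glycolytic lists. With limma-voom 0 genes of the 5 lists were called. Unadjusted edgeR p was under 0.05 for 4 gluconeogenic, 3 glycerol, 8 glucagon, 1 factor and 1 glycolytic gene. No share of all genes is given for unadjusted p, here or in the lists above, so those counts are read as no result.

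**Figure D4:**
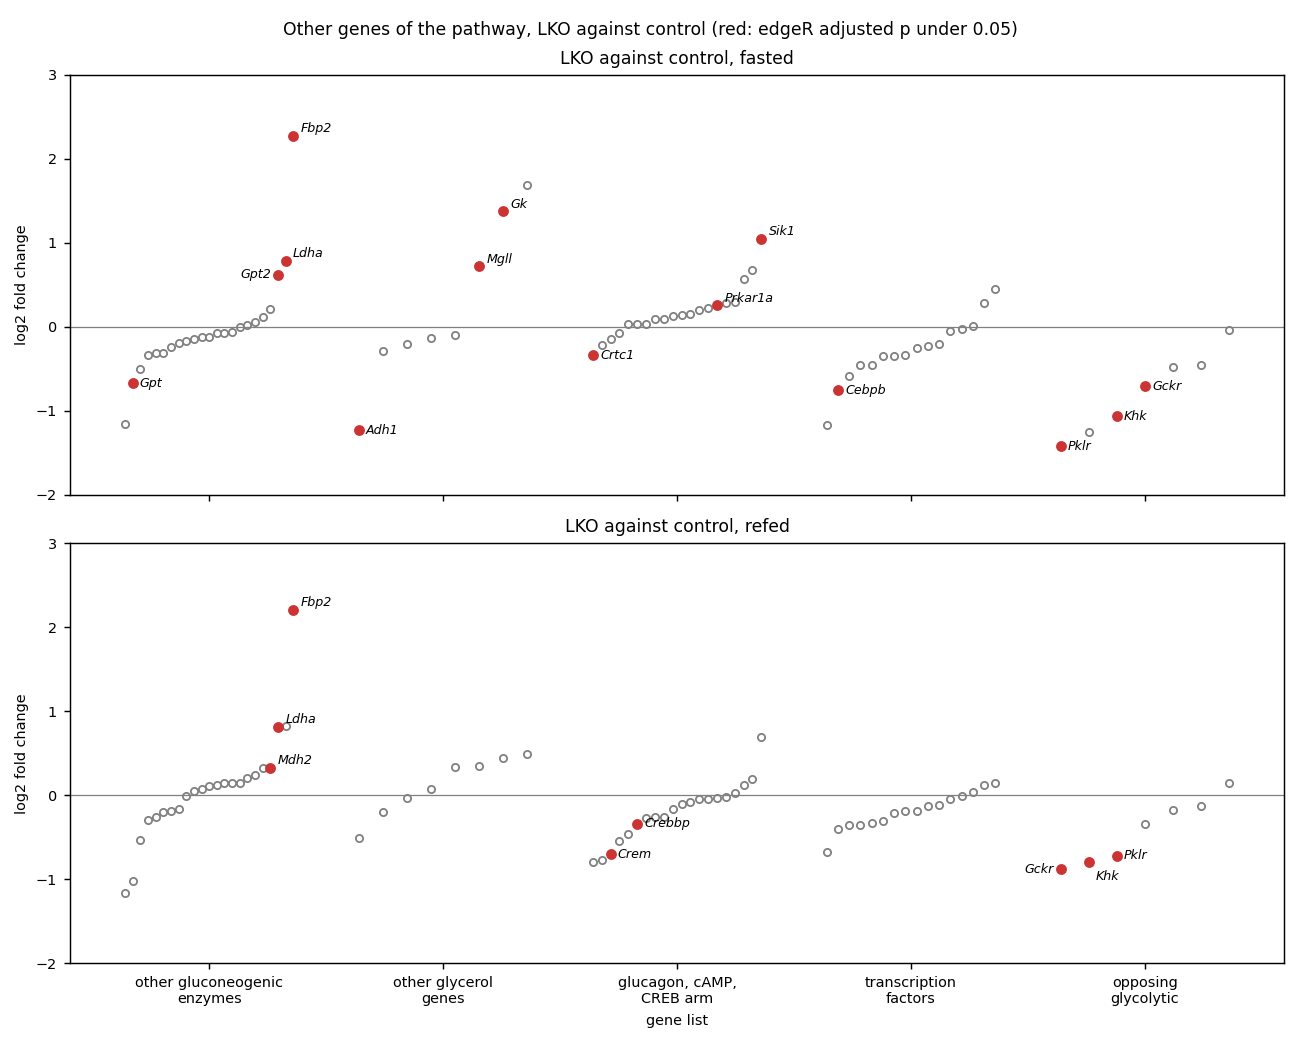
Log2 fold changes of LKO against control (vertical axes) in fasted and refed livers for the 5 lists of other pathway genes, sorted by value within each list; red points passed an edgeR adjusted p of 0.05. Pklr at -1.43 is the lowest and Fbp2 at 2.27 the highest called gene in the fasted panel.

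Setting a member beside the enzyme that runs against it gives a substrate-cycle ratio of levels per kilobase, given here as a description. Pck1 over Pklr ran from 7.79 to 20.6 in fasted control and from 30.5 to 103 in fasted LKO. After refeeding it ran from 7.60 to 11.2 for control and from 14.7 to 21.2 for LKO, so the genotypes overlapped in neither state. Fbp1 over Pfkl, the liver phosphofructokinase, had medians of 72.6, 81.1, 76.8 and 52.2 in the 4 groups in that order. For this ratio the genotypes overlapped in both states. It ran from 61.6 to 81.2 in fasted control and from 71.0 to 89.6 in fasted LKO. After refeeding it ran from 48.6 to 78.9 for control and from 50.6 to 56.4 for LKO. Of the genes in these ratios, edgeR called Pklr between fasted genotypes and both Pklr and Fbp1 between refed ones, while Pck1 and Pfkl were called in neither; DESeq2 also called Pck1 and Pfkl between fasted genotypes.

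Likeness of pattern was read as Pearson's r of log2 CPM over the 16 libraries, among 8887 genes with a mean of at least 5 CPM; it is a description, and the libraries share their group differences. The 3 genes most like Fbp1 were Gls2 (0.91), Suox (0.91) and Ass1 (0.89), and both Gls2 and Ass1 are on the periportal marker list. For Slc37a4 they were Etnk2 (0.93), Tedc2 (0.91) and Map2k6 (0.90). Crtc2 was most like Cebpa (0.93), Grik5 (0.91) and Pbld1 (0.89), with Cebpa at 790 to 878 CPM in fasted control and 593 to 676 in refed control. Pck1 was closest to Mfsd2a (0.90) and St3gal5 (0.89), and G6pc to Mrtfb (0.88), Cep44 (0.86) and Strn (0.85). Ppargc1a had Aldh6a1 and Dhtkd1 both at 0.83 and Adcy9 at 0.81, and values were about as low for Gpd2 (Nup50 0.83, Usp48 0.82, Rbm45 0.82). The closest gene was Dcaf8 (0.89) for Aqp9 and Amt (0.86) for Gpd1. The 9 members were left out of the genes searched, so likeness between members was not read.

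In the deposited tables, whose reads were mapped to mm39 per the submitters' processing notes, the 9 genes lie on 7 chromosomes. Pck1 is at chr2:172994841-173001066 and Gpd2 at chr2:57127647-57260731, both on the + strand. Slc37a4 is at chr9:44308149-44314265 (+) and Aqp9 at chr9:71017941-71075964 (-). G6pc is at chr11:101258387-101268729 (+), Fbp1 at chr13:63012567-63036096 (-), Ppargc1a at chr5:51611592-51725068 (-), Crtc2 at chr3:90161470-90171432 (+) and Gpd1 at chr15:99615396-99622886 (+). Fbp2 lies next to Fbp1, at chr13:62984691-63006236 on the same strand. These coordinates and those of the promoter windows are on different builds and are not to be compared.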

How the data were processed

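Poly-A RNA of 16 mouse livers was sequenced, 4 libraries in each of 4 groups of genotype and feeding state; totals ran from 14721601 to 24618230. Reads were mapped with HISAT2 2.0.5 to mm39, per the submitters' processing notes; the counting tool, its use of strand and the annotation are not given in the sources used here. As deposited by the authors, 4 tables of 8 libraries, one for each pair of groups, hold whole-number read counts that were not normalized, and gene lengths in bases per the file headers. The authors' log2 fold changes and adjusted p-values stand in the deposited tables without the name of a tool; they are printed only where named, with the sign turned to LKO minus control or refed minus fasted. Another 64 per-library columns were left unused.

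Each count column (S40 to S55) took its group from the heading shared by the tables that hold it, and none carries a replicate number. The tables were joined into 25803 genes; 0 counts differed between them, and 3148 genes absent from a library's tables were set to 0 there, 0 of them tested. In R 4.3.3 with edgeR 4.0.16, genes passing filterByExpr (14488) were TMM-scaled (factors 0.941 to 1.07) and fitted by glmQLFit with 4 groups as 1 factor; the common biological coefficient of variation came to 0.185. With glmQLFTest, 5 contrasts were tested, and a gene was called at a Benjamini-Hochberg adjusted p under 0.05 over all tested genes. The SE is the size of a log2 fold change over the square root of F. Log2 CPM used a prior count of 2. Alternatives were RLE and upper quartile scaling, no filter, a filter at a mean of 5 CPM, DESeq2 1.42.0, voom in limma 3.58.1, only the 2 groups compared, and leaving out each library. Named genes are the 9 members and any gene of the 5 pathway lists; some genes of those lists are not reported here and are in none of the lists' counts. Members and lists were chosen with earlier results of these data known. Promoters are RefSeq's, and motifs were searched on both strands.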

Additional observations from a re-analysis of the deposited data

Results flagged for a closer look

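In the 36 combinations of the 9 genes with a group of 4 libraries, 4 held a library whose gap to its nearest neighbour, as a share of the group's range, exceeded the 95% critical value of Dixon's test for 4 values; chance flags about 1 in 20 such groups. Ppargc1a was lowest in the fasted LKO library S44, at 1.5 CPM against 4.07 to 4.60 in the other libraries of that group, and S44 is also the library with 29.0 CPM of Krt19. In refed control Ppargc1a was highest in S49, at 5.05 CPM against 4.07 to 4.18, and S49 also held the highest Fbp1 value of the 16 libraries, 1440 CPM. Crtc2 was highest in S48 among refed control libraries, at 43.3 CPM against 40.5 to 40.7, a gap that is small beside the 49 CPM of the lowest fasted control library. Gpd2 was lowest in S40 among fasted control libraries, at 20.2 CPM against 28.1 to 28.9. S40 was also lowest in G6pc and Pck1, at 83.9 and 1298 CPM, and highest in Crtc2, at 59.7 CPM, within its group.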

How the results depend on the processing

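Over 733 fits of the 9 genes under other settings, 703 left the call as it was, 23 lost a call, 7 gained one and 0 reversed a called direction; among the 703, 33 uncalled estimates changed sign, none larger than 0.32 in the first fit. The number of the 9 genes called between fasted genotypes (1) was 2 with DESeq2, 0 with only the 2 groups fitted, and 0 to 3 without 1 library. Between refed genotypes (1) it was 0 with RLE scaling, 0 with upper quartile scaling, 0 with no filter, 0 with only the 2 groups, and 0 to 1 without 1 library. For refeeding in LKO (1) it was 2 with the filter at a mean of 5 CPM and 0 to 1 without 1 library, and for refeeding in control (2) it was 1 to 3 without 1 library; the interaction stayed at 0 in every fit run. Of the pathway list genes called, 10 of 14, 3 of 8, 7 of 15 and 8 of 14 kept the call in every fit without a library (fasted, refed, refeeding in control, refeeding in LKO), and 11, 3, 11 and 11 under every other setting. Counts over all genes ran from 1048 without S44 to 2140 with DESeq2 (fasted, 1772), from 197 without S48 to 924 with DESeq2 (refed, 526), from 1220 without S40 to 2612 with DESeq2 (refeeding in control, 2238), from 1795 without S52 to 2896 with DESeq2 (refeeding in LKO, 2616) and from 8 without S48 to 467 with DESeq2 (interaction, 78). Beyond the smaller number of libraries or genes in some of these fits, the cause was not tested. No paired analysis was possible because the count columns carry no replicate number. Of the 9 genes Ppargc1a had the fewest counts, 30 to 105 a library.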
